A study of Pan troglodytes with 6 samples.

Results

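The genes described here are 70 protein kinases, kinase partners and phosphatases of the protein kinase C, calmodulin-dependent kinase and mitogen-activated protein kinase (MAP kinase) families, measured in the cerebellum and the liver of chimpanzees. The rule that picked them uses gene symbols and no measured value, although the families themselves were chosen with earlier results of these data known. A feature was taken when the platform annotation gave it a single symbol that names a protein kinase C isoform (PRKC), a CaM kinase (CAMK), a MAP kinase (MAPK), an upstream kinase of the cascade (MAP2K, MAP3K or MAP4K) or a dual-specificity phosphatase (DUSP). This gave 70 of the 12584 genes with such a feature, each with 1 row of its own among the 15143 features. They comprise 47 kinases, 18 dual-specificity phosphatases, 2 inhibitors of CaM kinase II (CAMK2N1 and CAMK2N2), the JNK scaffold MAPK8IP3, and MAPK1IP1L and MAP3K7CL, whose symbols match although they are no kinases. Another 15 features that name a gene of these families beside a second symbol were not used. Of 94 genes of the families that had been listed by role, 26 were not analysed here.

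Protein kinase C isoforms are serine and threonine kinases. Conventional isoforms respond to calcium and diacylglycerol, the next class to diacylglycerol alone, and atypical isoforms to neither. CaM kinases are switched on by calcium bound to calmodulin, and CaM kinase kinases phosphorylate CaM kinases I and IV. MAP kinases form the last tier of a relay in which a MAP4K or a small GTPase activates a MAP3K, which activates a MAP2K, which activates ERK, JNK or p38. Many dual-specificity phosphatases, though not all, remove the activating phosphates from MAP kinases. In the cerebellum these pathways are known for their part in synaptic plasticity and neuronal stress, and in the liver for responses to growth factors, hormones and inflammation.

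RNA was hybridised to an Affymetrix exon array designed on human sequence. The series holds 3 cerebellum arrays and 3 liver arrays of Pan troglodytes. In each tissue replicate 1 came from a female aged 27 years, replicate 2 from a male aged 37 years and replicate 3 from a male aged 30 years, with no treatment or genotype given. The labels do not state whether the cerebellum and the liver of the same number came from 1 animal, and the p values cover only the spread between 3 samples per tissue. With 3 arrays per tissue, no two-sided permutation p can fall under 0.1, so genes were tested only in the fit over all features, with levels as log2(intensity + 16.8). Differences are in log2 units of that scale, cerebellum minus liver. Values are linear intensities with the same distribution on every array. Levels of different genes cannot be set against each other, because each feature has its own probes and human probes can differ in their match to chimpanzee sequence. In whole tissue, fewer cells of a type and less RNA per cell cannot be told apart.

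The tissue labels matched their markers. All 9 measured neuron markers were higher in cerebellum, and their summed intensity was 14560 to 15418 across cerebellum arrays and 308 to 425 across livers, and all 6 hepatocyte markers were higher in liver, at 192 to 440 in cerebellum and 18529 to 24308 in liver. Arrays correlated across features with Pearson's r of 0.947 to 0.977 within cerebellum, 0.906 to 0.950 within liver and 0.445 to 0.507 between tissues, where features are no replicates. Cerebellum replicate 2 and liver replicate 3 are called the arrays that stood apart. Their median size of shift from the other 2 arrays of the tissue, over all features, was 0.246 and 0.281 log2 units. Cerebellum replicates 1 and 3 were at 0.189 and 0.162, but liver replicate 1, at 0.276, lay close to liver replicate 3. On the log2 scale, endothelial markers in cerebellum replicate 2 lay 0.73 above the other cerebellum arrays. Fibroblast markers in liver replicate 3 lay 1.66 above the other livers. Markers shifted on other arrays too, and oligodendrocyte markers in cerebellum replicate 1 lay 0.81 above the other cerebellum arrays. Where the text names cerebellum replicate 2 or liver replicate 3 as standing out for a called member, a value without that array is given. Other members shifted on these arrays as well.

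More than the background share of the kinases were higher in cerebellum, 25 of 47, against 7 higher in liver. Among the 18 phosphatases 3 were higher in cerebellum and 6 in liver. These counts depend on the scaling of the arrays, while the phosphatase median lay under that of all features with both scalings given below. Of the 70 genes, 30 were higher in cerebellum and 14 higher in liver (limma, adjusted p under 0.05 over all features), against 26.7% and 23.9% of all features in the same directions. The 30 genes are 42.9% of the members and the 14 genes 20%, so the share toward liver lay near that of all features. When at least 2-fold was required as well, 25 and 10 genes passed, where 17.2% and 15.8% of all features did. The values of the tissues did not overlap for 29 genes with cerebellum above and 17 with liver above, or 41.4% and 24.3% of the members, against 31.0% and 28.5% of all features. The median log2 difference, cerebellum minus liver, was 0.36 for the members and 0.04 for all features. Without cerebellum replicate 2 and liver replicate 3 the counts were 31 and 13 of 70, where 4092 and 3748 of 15143 features passed.

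**Figure D1:**
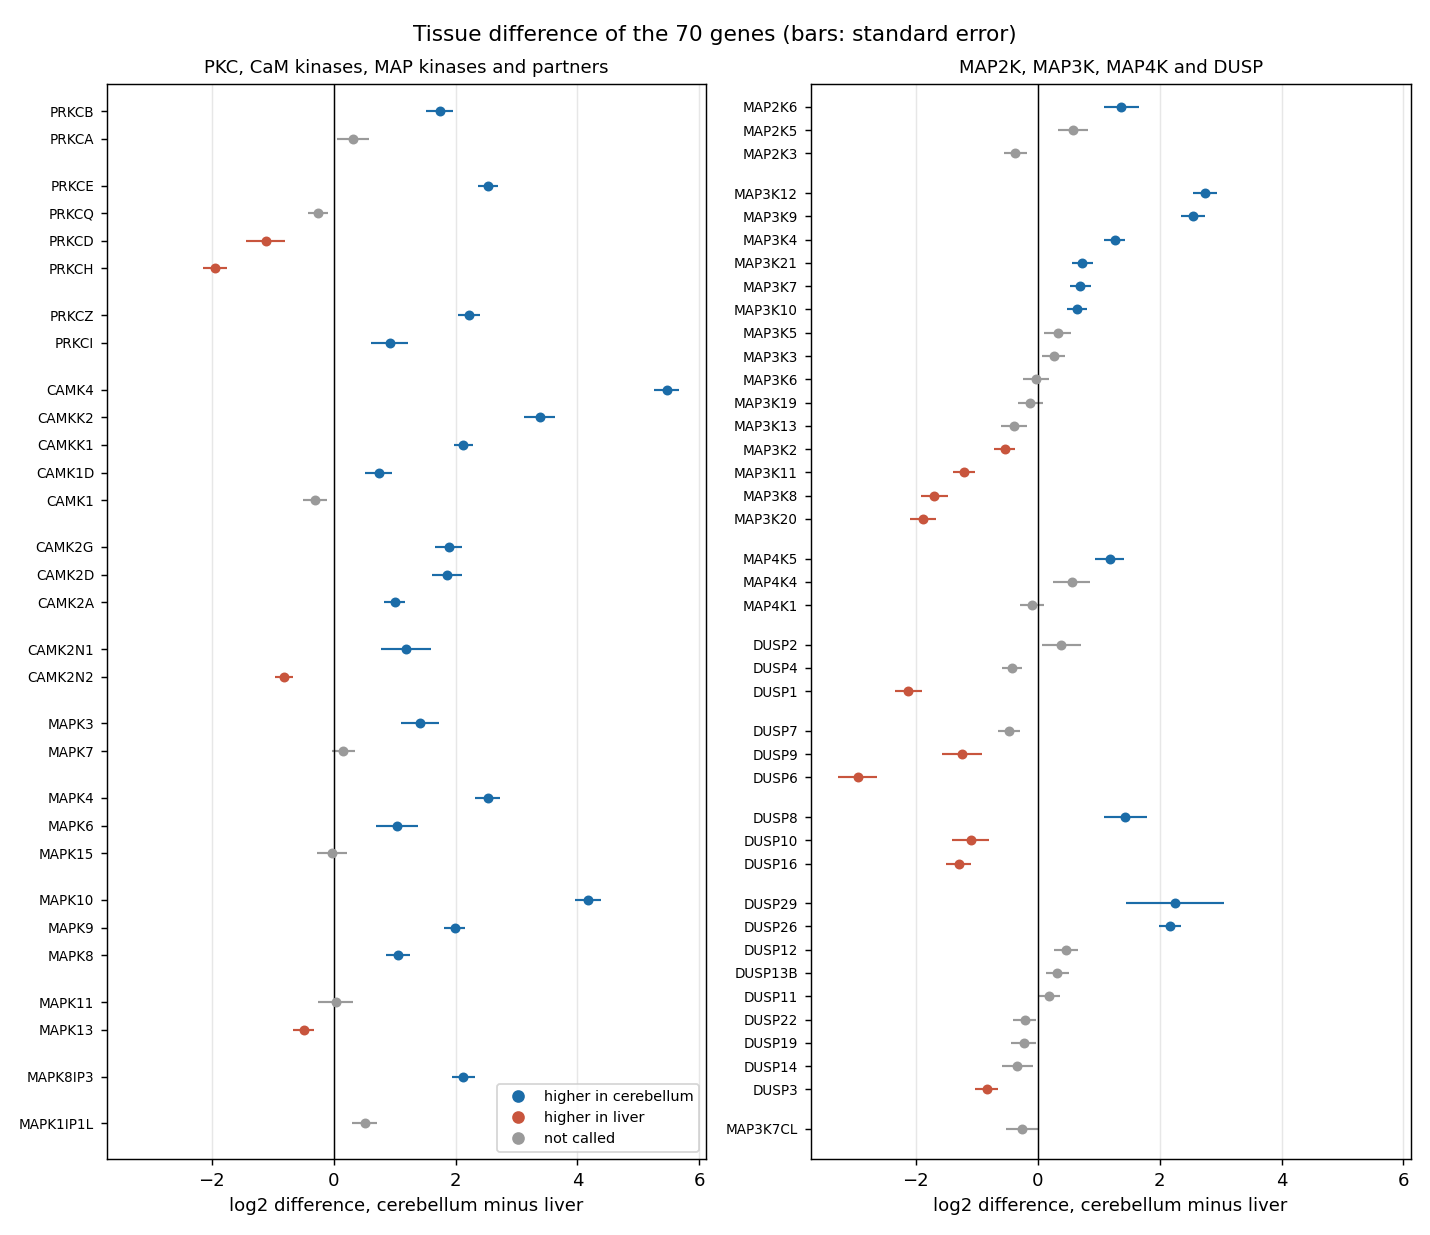
Log2 difference (cerebellum minus liver) of each of the 70 genes with its standard error, in blocks by role; colour shows the limma call at an adjusted p under 0.05. CAMK4 at 5.46 and MAPK10 at 4.17 lie farthest toward cerebellum, and DUSP6 at -2.95 and DUSP1 at -2.12 farthest toward liver.

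Family counts are set beside the shares of all features, 26.7% higher in cerebellum and 23.9% in liver. Of 8 CaM kinases, 7 (87.5%) were higher in cerebellum and 0 in liver, with a median of 1.87. Of 10 MAP kinases, 6 (60%) were higher in cerebellum and 1 (10%) in liver, with a median of 1.05. Among 8 protein kinase C isoforms, 4 (50%) were higher in cerebellum and 2 (25%) in liver. The 21 kinases of the MAP2K, MAP3K and MAP4K tiers had 8 (38.1%) higher in cerebellum and 4 (19%) in liver. The liver shares of protein kinase C and of these tiers lay near that of all features. The phosphatases, with 16.7% higher in cerebellum and 33.3% in liver, had a median of -0.28. No test of the difference between families was made. Arrays were also aligned on ribosomal protein, proteasome and NADH dehydrogenase genes (63 general genes), which moved every log2 difference by the same amount. The median of all features was then 0.425 in place of 0.04, and 5749 of 15143 features were higher in cerebellum and 2302 in liver. Of the 18 phosphatases, 5 were then higher in cerebellum and 4 in liver, with a median of 0.11, still under that of all features. Under that alignment 37 members were higher in cerebellum and 9 in liver, so that 80.4% of called members lay toward cerebellum in place of 68.2%, against 71.4% in place of 52.8% for all called features. It ended the calls of CAMK2N2, MAPK13, MAP3K2, DUSP9 and DUSP3, and PRKCA, MAP2K5, MAP3K5, MAP4K4, DUSP12, DUSP13B and MAPK1IP1L passed as higher in cerebellum.

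**Figure D2:**
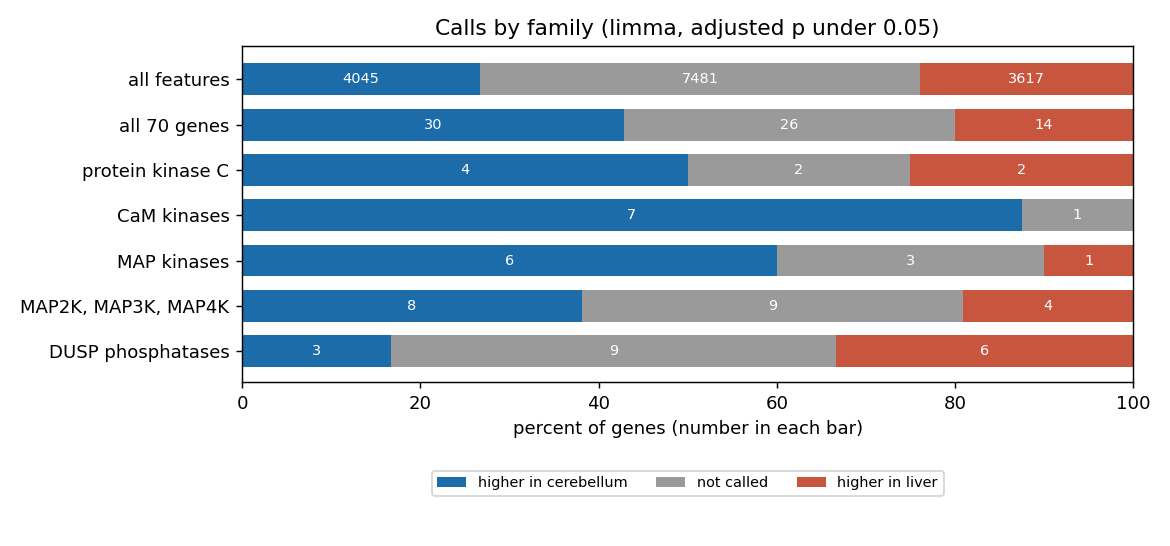
Percent of genes called higher in cerebellum, not called, or called higher in liver, for all features, all 70 genes and each family, with the number of genes in each bar. The CaM kinases have 7 of 8 genes toward cerebellum, and the DUSP phosphatases have 6 of 18 toward liver.

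CAMK4 had the largest difference of the 70 genes. CAMK4, which encodes CaM kinase IV, a nuclear kinase known from cerebellar granule cells, had intensities of 3023, 1968 and 2616 in cerebellum, against 46.8, 40.3 and 34.4 in liver. Its lowest cerebellum value was far above its highest liver value, and only 26 of all features had a larger difference toward cerebellum. The tissues differed by 5.46 ± 0.21 log2 units (standard error; adjusted p = 3.20e-07 by limma).

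Both kinases that activate CaM kinases I and IV moved the same way. CAMKK2 had 1513, 1202 and 1330 in cerebellum, against 72.4, 135 and 147 in liver (3.38 log2 units, adjusted p = 1.06e-05 by limma). Liver replicate 1 was the lowest of the livers, and the tissues did not overlap. CAMKK1 averaged 161 ± 11.7 in cerebellum and 23.9 ± 2.31 in liver (SD, n = 3 per tissue here and below), with a log2 difference of 2.13 (limma, adjusted p = 1.08e-05). The CaM kinase I genes moved less. CAMK1D differed by 0.74 (limma, adjusted p = 0.0233), and this call was lost when cerebellum replicate 2, cerebellum replicate 3 or liver replicate 1 was left out (limma, adjusted p = 0.0731, 0.0679 and 0.0563), or both arrays that stood apart (adjusted p = 0.0508). CAMK1 averaged 101 ± 22.8 in cerebellum and 128 ± 13.2 in liver and was not called (95% interval of the log2 difference -0.77 to 0.15). CAMKK1, CAMK1D and CAMK1 are named outside the rule for named genes, after their values were seen.

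CaM kinase II subunits assemble into large rings that keep their activity after a calcium pulse. All 3 measured subunit genes were higher in cerebellum without overlap. Of all features, 26.7% were called higher in cerebellum and 31.0% lay above liver without overlap. CAMK2G, a widely expressed subunit, had 407, 680 and 438 in cerebellum, against 117, 136 and 114 in liver (1.89 log2 units, adjusted p = 1.57e-04 by limma). CAMK2D, another widely expressed subunit, had 868, 563 and 969 in cerebellum, against 247, 169 and 200 in liver (1.86 log2 units, adjusted p = 2.98e-04 by limma). In cerebellum, replicate 2 was the highest array for CAMK2G and the lowest for CAMK2D, and without it the differences were 1.66 and 2.09. CAMK2A, the subunit best known from forebrain neurons, averaged 78.8 ± 8.88 in cerebellum and 31.0 ± 5.96 in liver (1.00 log2 units, adjusted p = 0.00153 by limma).

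The genes of both CaM kinase II inhibitor proteins went in opposite directions. CAMK2N1 had 913, 2695 and 823 in cerebellum, against 622, 553 and 482 in liver. The tissues did not overlap, and cerebellum replicate 2 was far above the other cerebellum arrays. Its log2 difference of 1.18 (limma, adjusted p = 0.0405) was 0.64 without that array (adjusted p = 0.0299) and 0.55 without both arrays that stood apart (0.0441), and the call was lost without liver replicate 1, 2 or 3 (limma, adjusted p = 0.0657, 0.0978 and 0.0947). CAMK2N2 had 46.5, 47.1 and 50.3 in cerebellum, against 90.9, 99.6 and 100.5 in liver. Its replicates lay close together in both tissues, and its log2 difference was -0.81 (limma, adjusted p = 0.00247). Once arrays were aligned on those general genes, CAMK2N2 was no longer called, at -0.42 log2 units and an adjusted p of 0.114 (limma).

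Protein kinase C isoforms were split between the tissues. PRKCB, a conventional isoform, had 573, 641 and 691 in cerebellum, against 129, 191 and 227 in liver (1.74 log2 units, adjusted p = 2.42e-04 by limma). The tissues did not overlap. PRKCA, the other conventional isoform measured, had 127, 215 and 95.8 in cerebellum, against 107, 113 and 105 in liver. Its tissues overlapped and it was not called, with a 95% interval from -0.28 to 0.91.

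The isoforms that respond to diacylglycerol without calcium gave differences in both directions. PRKCE, which encodes PKC epsilon, had 657, 613 and 567 in cerebellum, against 91.6, 84.2 and 101 in liver (2.53 log2 units, adjusted p = 4.88e-06 by limma). PRKCH, which encodes PKC eta, was the opposite, with 17.0, 29.8 and 15.9 in cerebellum, against 136, 113 and 131 in liver (-1.94 log2 units, adjusted p = 6.20e-05 by limma). For both genes the replicates of each tissue were close beside the gap between tissues. Without cerebellum replicate 2, the highest cerebellum array for PRKCH, the PRKCH difference was -2.10. PRKCD, which encodes PKC delta, had 44.6, 129 and 51.9 in cerebellum, against 143, 191 and 170 in liver (-1.11 log2 units, adjusted p = 0.0187 by limma). Cerebellum replicate 2 came near the livers, and without it the difference was -1.50 (limma, adjusted p = 8.45e-04). PRKCD was no longer called without cerebellum replicate 1, cerebellum replicate 3 or liver replicate 2 (limma, adjusted p = 0.0706, 0.0738 and 0.0668). PRKCQ, an isoform known from T cells, was dim at 16.6 ± 2.80 in cerebellum and 22.9 ± 0.739 in liver and was not called, although every liver value lay above every cerebellum value.

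Atypical isoforms act in cell polarity. PRKCZ had 674, 546 and 645 in cerebellum, against 136, 99.8 and 126 in liver, with no overlap (2.22 log2 units, adjusted p = 1.86e-05 by limma). PRKCI had 254, 156 and 179 in cerebellum, against 70.2, 73.1 and 156 in liver. Liver replicate 3 reached the lowest cerebellum value, and without it the difference was 1.24 (limma, adjusted p = 0.00290). The PRKCI difference of 0.92 (limma, adjusted p = 0.0325) did not pass when cerebellum replicate 1 or 3, or liver replicate 1 or 2, was left out (limma, adjusted p = 0.116, 0.0710, 0.0969 and 0.113).

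**Figure D3:**
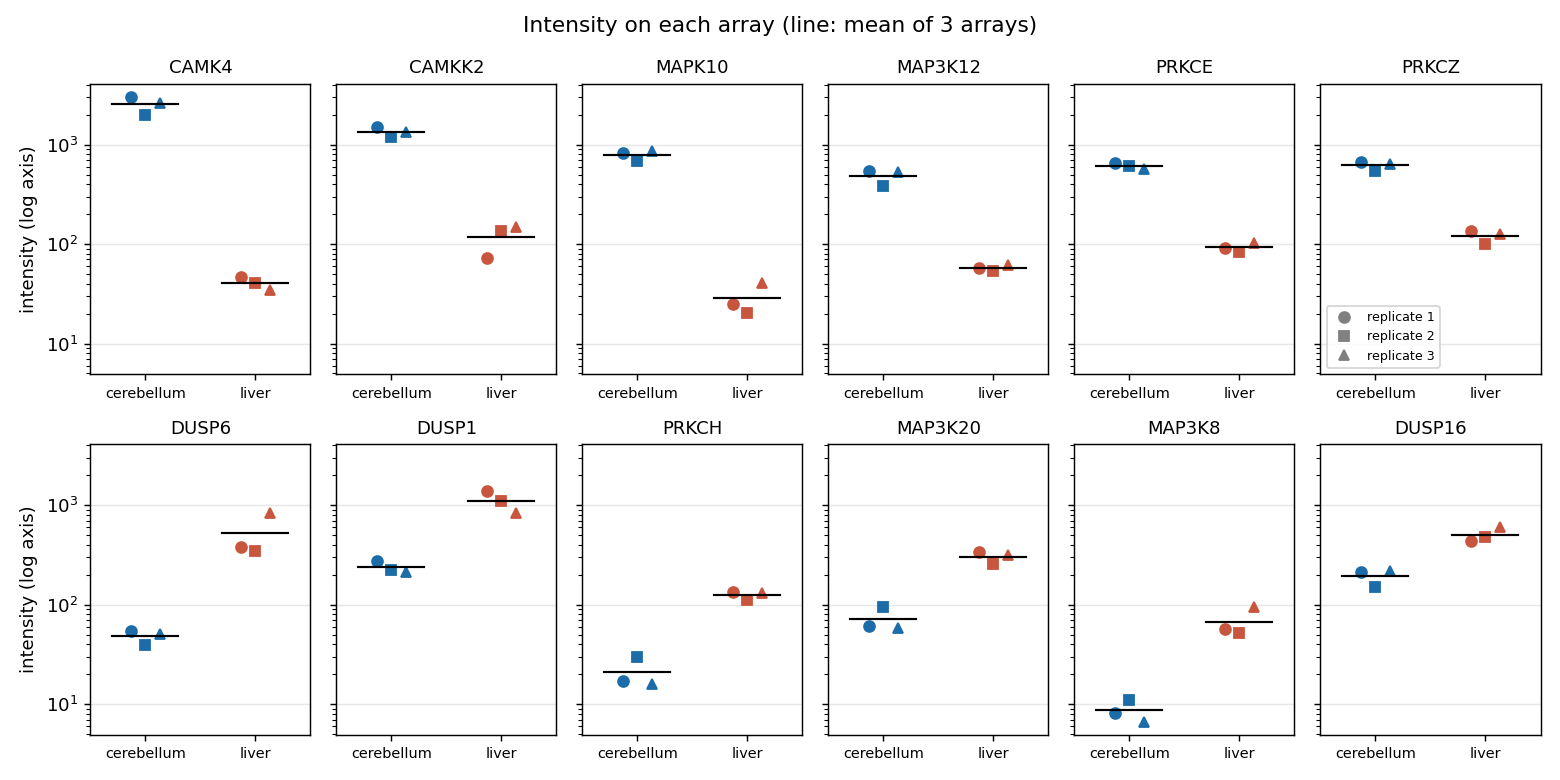
Intensity on each array (log axis) for 12 members, with cerebellum left of liver, a marker for each replicate and a line at the mean of 3 arrays. The top row holds genes higher in cerebellum and the bottom row genes higher in liver; in each panel the tissues do not overlap, and DUSP6 shows liver replicate 3 at 845 above the other livers.

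The 3 JNK genes were all higher in cerebellum, against 26.7% of all features. MAPK10, which encodes JNK3, the JNK isoform known mainly from the nervous system, had 821, 683 and 862 in cerebellum, against 24.7, 20.3 and 40.3 in liver. The livers lay within a narrow band far below, and the tissues differed by 4.17 ± 0.21 log2 units (standard error; adjusted p = 1.23e-06 by limma). MAPK9, which encodes JNK2, had 790, 802 and 954 in cerebellum, against 198, 223 and 182 in liver (1.99 log2 units, adjusted p = 2.45e-05 by limma). MAPK8, which encodes JNK1, had 458, 332 and 414 in cerebellum, against 150, 209 and 192 in liver (1.06 log2 units, adjusted p = 0.00224 by limma). The scaffold MAPK8IP3, or JIP3, which links JNK to transport along axons, had 465, 368 and 437 in cerebellum, against 101, 82.1 and 69.0 in liver, again without overlap (2.13 log2 units, adjusted p = 2.99e-05 by limma).

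The ERK genes were higher in cerebellum or not called. MAPK3, which encodes ERK1, had 372, 661 and 358 in cerebellum, against 104, 173 and 213 in liver (1.41 log2 units, adjusted p = 0.00520 by limma). Cerebellum replicate 2 was the highest, the tissues did not overlap, and the difference without that array was 1.14 (limma, adjusted p = 0.0163). MAPK7, which encodes ERK5, averaged 81.3 ± 4.08 in cerebellum and 72.1 ± 16.5 in liver and was not called (95% interval -0.27 to 0.59). Among the atypical MAP kinases, MAPK4, or ERK4, had 246, 265 and 248 in cerebellum, against 26.1, 44.6 and 22.3 in liver (2.53 log2 units, adjusted p = 1.77e-05 by limma). MAPK6, or ERK3, had 298, 700 and 583 in cerebellum, against 155, 263 and 307 in liver. Its tissues overlapped, and a further feature that names MAPK6 with a second symbol was not used. The MAPK6 difference of 1.04 (limma, adjusted p = 0.0356) did not pass when cerebellum replicate 2 or 3, or liver replicate 1 or 2, was left out (limma, adjusted p = 0.117, 0.115, 0.107 and 0.0678), nor without both arrays that stood apart (adjusted p = 0.0658). MAPK15 was not called, at 111 ± 9.18 in cerebellum and 118 ± 46.4 in liver.

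The measured p38 genes gave 1 narrow call. MAPK11, or p38 beta, had 142, 208 and 159 in cerebellum, against 111, 256 and 151 in liver, with full overlap and a 95% interval from -0.62 to 0.70. MAPK13, or p38 delta, was dim, with 31.2, 18.7 and 25.5 in cerebellum, against 43.6, 38.8 and 42.6 in liver. Its log2 difference of -0.49 (limma, adjusted p = 0.0462) passed the threshold narrowly. MAPK13 did not pass when cerebellum replicate 2 or 3, or any 1 of the livers in turn, was left out (limma, adjusted p = 0.120, 0.118, 0.0897, 0.0787 and 0.0748), nor without both arrays that stood apart (adjusted p = 0.142).

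In the tier above, 1 of 3 MAP2K genes was called, against 50.6% of all features in either direction. MAP2K6, which activates p38, had 243, 200 and 229 in cerebellum, against 43.1, 83.2 and 116 in liver, with no overlap (1.37 log2 units, adjusted p = 0.00376 by limma). Without liver replicate 3, its highest liver array, the difference was 1.63 (limma, adjusted p = 0.00116). MAP2K3, the other p38 activator measured, averaged 139 ± 24.3 in cerebellum and 184 ± 24.2 in liver and was not called (95% interval -0.80 to 0.07). MAP2K5, which activates ERK5, averaged 215 ± 57.3 in cerebellum and 138 ± 34.2 in liver (0.57 log2 units, adjusted p = 0.0832 by limma). It passed without cerebellum replicate 2 (adjusted p = 0.0284), without liver replicate 3 (0.0348) and without both (0.96 log2 units, adjusted p = 0.00553 by limma).

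The MAP3K genes differed in both directions, with 6 of 15 (40%) higher in cerebellum and 4 (26.7%) higher in liver. Of all features, 26.7% were higher in cerebellum and 23.9% in liver. MAP3K12, or DLK, a kinase of the neuronal response to axon injury, had 540, 385 and 537 in cerebellum, against 56.9, 53.7 and 62.3 in liver (2.75 log2 units, adjusted p = 6.61e-06 by limma). MAP3K9, a mixed-lineage kinase, had 453, 306 and 342 in cerebellum, against 47.9, 53.2 and 42.7 in liver (2.55 log2 units, adjusted p = 1.17e-05 by limma). Both act upstream of JNK, and neither showed overlap. MAP3K20, or ZAK, which senses stalled ribosomes, had 60.7, 94.7 and 58.9 in cerebellum, against 337, 256 and 318 in liver (-1.88 log2 units, adjusted p = 1.24e-04 by limma). Without cerebellum replicate 2, the highest cerebellum array, the MAP3K20 difference was -2.06. MAP3K8, or TPL2, which passes toll-like receptor signals to ERK in macrophages, had 8.25, 11.1 and 6.69 in cerebellum, against 56.5, 51.6 and 94.3 in liver (-1.70 log2 units, adjusted p = 2.77e-04 by limma). Its cerebellum values all lay under the pseudocount of 16.8, so the log2 difference understates the ratio, and the difference was -1.48 without liver replicate 3, the highest array.

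The remaining MAP3K genes other than MAP3K19 are named outside the rule. MAP3K4, MAP3K21, MAP3K7 and MAP3K10 were higher in cerebellum, with log2 differences of 1.26, 0.73, 0.70 and 0.64, and MAP3K11 and MAP3K2 were higher in liver, at -1.21 and -0.54. The MAP3K10 call was lost without cerebellum replicate 3 (limma, adjusted p = 0.0506), and MAP3K2 did not pass when any 1 cerebellum array, or liver replicate 1 or 2, was left out, where its adjusted p was 0.0551 to 0.0930. MAP3K5, MAP3K3, MAP3K6, MAP3K19 and MAP3K13 were not called. Within the mixed-lineage and DLK kinases, which were grouped after their values were seen, MAP3K9, MAP3K10, MAP3K12 and MAP3K21 were thus higher in cerebellum, MAP3K11 was higher in liver and MAP3K13 was not called at 74.4 ± 16.8 in cerebellum and 102 ± 18.4 in liver. The mean level of MAP3K19 was under the pseudocount in both tissues, as were those of DUSP13B and MAP3K7CL.

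At the top of the relay, MAP4K5 had 451, 250 and 320 in cerebellum, against 118, 134 and 160 in liver, with no overlap (1.18 log2 units, adjusted p = 0.00316 by limma). MAP4K4 had 355, 170 and 227 in cerebellum, against 147, 119 and 220 in liver. Its tissues overlapped and it was not called (0.56 log2 units, adjusted p = 0.154 by limma), though it passed with both arrays that stood apart left out, at 1.01 (adjusted p = 0.0164). MAP4K1, a kinase of blood cells, was dim and not called, at 30.6 ± 1.46 in cerebellum and 34.4 ± 10.8 in liver. MAPK1IP1L was not called, at 1015 ± 191 in cerebellum and 705 ± 101 in liver (limma, adjusted p = 0.0677), and passed without cerebellum replicate 2 (0.0285), without liver replicate 3 (0.0447) or without both (adjusted p = 0.0127).

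DUSP6 and DUSP1 had the largest differences toward liver of the 70 genes, at -2.95 and -2.12 on the log2 scale. DUSP6, a cytoplasmic phosphatase of ERK whose gene is itself switched on by ERK signalling, had 54.1, 39.3 and 51.5 in cerebellum, against 382, 349 and 845 in liver. Every liver array was far above every cerebellum array, and liver replicate 3 was the highest. The tissues differed by -2.95 ± 0.32 log2 units (standard error; adjusted p = 9.65e-05 by limma), and by -2.56 without liver replicate 3. DUSP9, another cytoplasmic ERK phosphatase, had 13.2, 6.76 and 23.4 in cerebellum, against 53.2, 93.9 and 30.8 in liver. The gap between its tissues was small beside the spread of the livers (-1.23 log2 units, adjusted p = 0.0128 by limma), and DUSP9 lost its call once arrays were aligned on general genes (adjusted p = 0.0561). Without liver replicate 3, its lowest liver array, the DUSP9 difference was -1.53 (limma, adjusted p = 0.00358). DUSP7, of the same subgroup, averaged 111 ± 12.8 in cerebellum and 161 ± 27.6 in liver and was not called (limma, adjusted p = 0.0640), though its tissues did not overlap. It passed without liver replicate 1 (adjusted p = 0.0354).

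Among the nuclear phosphatases, DUSP1, an immediate early gene induced by stress and glucocorticoids, had 278, 226 and 213 in cerebellum, against 1388, 1114 and 841 in liver (-2.12 log2 units, adjusted p = 7.59e-05 by limma). The tissues were far apart. DUSP4 averaged 30.9 ± 4.48 in cerebellum and 47.1 ± 5.60 in liver, without overlap and not called (limma, adjusted p = 0.0666). DUSP2 was not called either, with 52.6, 41.8 and 55.4 in cerebellum, against 63.5, 14.2 and 35.6 in liver, and its cerebellum values lay within the range of the livers.

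The 3 phosphatases that prefer JNK and p38 were all called, in both directions, against 50.6% of all features. DUSP8, known from brain and heart, had 341, 225 and 367 in cerebellum, against 148, 50.6 and 134 in liver (1.44 log2 units, adjusted p = 0.00882 by limma). Replicate 2 was the lowest array in both tissues, and without cerebellum replicate 2 the difference was 1.64. DUSP16, a JNK phosphatase, had 216, 152 and 220 in cerebellum, against 436, 476 and 602 in liver (-1.30 log2 units, adjusted p = 9.68e-04 by limma). DUSP10 had 57.0, 148 and 69.4 in cerebellum, against 236, 196 and 175 in liver (-1.10 log2 units, adjusted p = 0.0149 by limma). Cerebellum replicate 2 was the highest cerebellum array for DUSP10, and without it the difference was -1.45 (limma, adjusted p = 0.00115). DUSP10 did not pass without cerebellum replicate 1 (limma, adjusted p = 0.0570) or 3 (0.0606).

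Of 9 atypical phosphatases, which are smaller and lack the MAP kinase docking domain, 6 (66.7%) were not called, against 49.4% of all features. DUSP26, a phosphatase known from neural and neuroendocrine tissue, had 182, 227 and 161 in cerebellum, against 26.8, 30.1 and 29.1 in liver (2.17 log2 units, adjusted p = 1.93e-05 by limma). DUSP3, which acts on ERK and JNK, had 357, 292 and 423 in cerebellum, against 652, 663 and 617 in liver (-0.84 log2 units, adjusted p = 0.00522 by limma). Neither showed overlap, but DUSP3 lost its call once arrays were aligned on general genes (adjusted p = 0.154). DUSP29 had 183, -23.5 and 135 in cerebellum, against -169.95 on every liver array, the lowest value any array holds. Values below 0 were set to 0, so its call (limma, adjusted p = 0.0436) rests on 2 cerebellum arrays. DUSP29 did not pass when cerebellum replicate 1 or 3 was left out (limma, adjusted p = 0.145 and 0.144), nor when any 1 liver array was (0.0912, 0.106 and 0.0849), and the log2 difference was 3.38 without cerebellum replicate 2, in place of 2.25. DUSP11, DUSP12, DUSP13B, DUSP14, DUSP19 and DUSP22, named outside the rule except for DUSP13B, had log2 differences between -0.33 and 0.46 and were not called.

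Against the mean of the other 2 arrays of the tissue, the median size of shift over the 70 genes, without regard to sign, was 0.21, 0.30 and 0.16 log2 units on cerebellum replicates 1 to 3 and 0.24, 0.20 and 0.24 on liver replicates 1 to 3. Over all features it was 0.19, 0.25 and 0.16 in cerebellum and 0.28, 0.23 and 0.28 in liver. In cerebellum replicate 2, CAMK2N1, PRKCD and DUSP10 were at 1.62, 1.17 and 1.05 and DUSP29 was at -3.38. That is 3 members at least 1 above and 1 at least 1 below, of 70, where 1.29% and 1.2% of all features shifted as far. On the same array markers of macrophages and microglia lay 0.53 and those of astrocytes and Bergmann glia 0.54 above the other cerebellum arrays. In cerebellum replicate 1, DUSP29 was at 1.98 and MAPK6 at -1.06, where 0.720% of all features lay at least 1 above and 0.363% at least 1 below. In cerebellum replicate 3, DUSP29 was at 1.40, where 0.244% of all features lay as far above. In liver replicate 2, DUSP2 and DUSP8 were at -1.07 and -1.22, where 1.36% of all features lay as far below, and in liver replicate 1 the count of such members was 0. In liver replicate 3, DUSP6 at 1.17 was the only member past 1, against 3.36% of all features above, and macrophage and lymphocyte markers lay 0.80 and 0.54 above the other livers. Their part in these shifts was not tested.

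**Figure D4:**
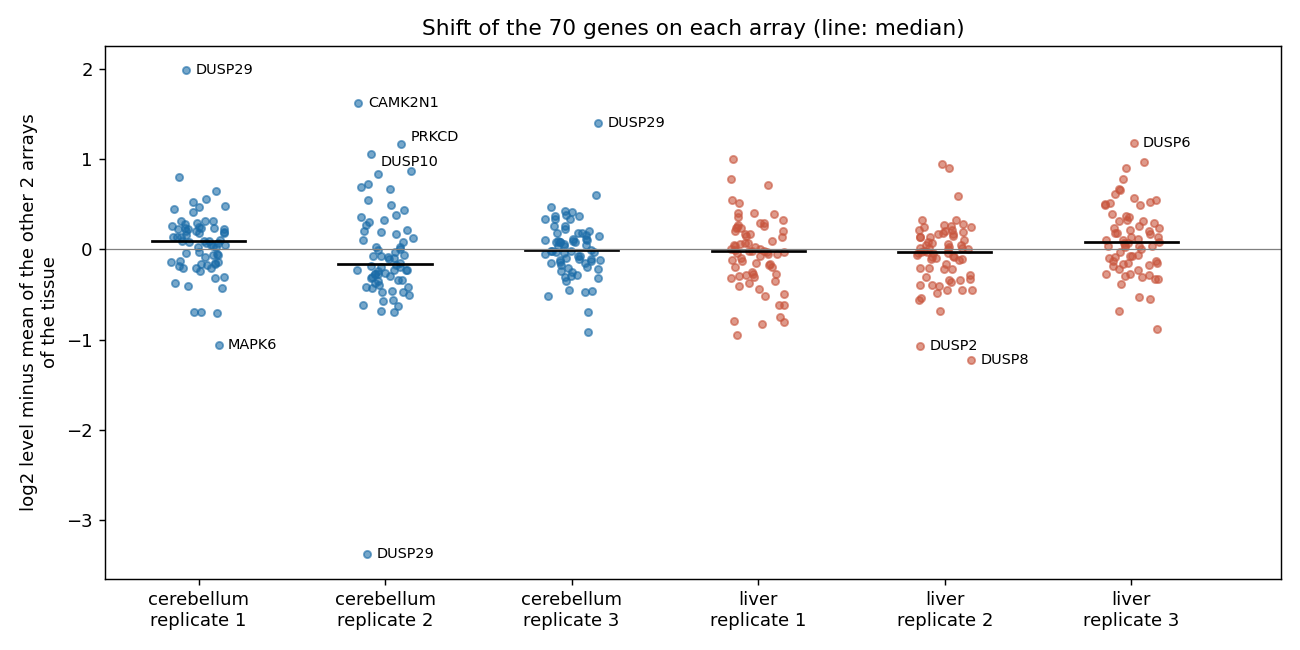
Log2 level of each of the 70 genes on each array minus the mean of the other 2 arrays of the same tissue, with a line at the median and names where the shift is at least 1 in either direction. Shifts of a gene within a tissue balance each other; CAMK2N1 at 1.62 stands out in cerebellum replicate 2 and DUSP6 at 1.17 in liver replicate 3.

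Members known from blood and immune cells as well as other tissues, picked out after their values were seen, did not share a direction. MAP3K8, PRKCH and PRKCD were higher in liver, PRKCB was higher in cerebellum, and PRKCQ, MAP4K1 and DUSP2 were not called. All 7 measured markers of macrophages and microglia were higher in liver, and their summed intensity was 214 to 436 across cerebellum arrays and 4048 to 7085 across livers, and 0 of them stayed under the pseudocount on every array of either tissue. Of 8 lymphocyte markers, 6 were higher in liver (summed 207 to 268 across cerebellum arrays and 1124 to 1516 across livers), and CD3E, CD2 and JCHAIN stayed under the pseudocount on every cerebellum array. JCHAIN alone made up 734, 624 and 730 of the liver sums, and CD3D and CD79A were not called. Of 6 endothelial markers, 5 were higher in liver, at 104 to 274 in cerebellum and 1568 to 2024 in liver. All 6 fibroblast and stellate cell markers were higher in liver, at 221 to 605 in cerebellum and 1343 to 4126 in liver. Astrocyte and Bergmann glia markers, of which 4 of 5 were higher in cerebellum, summed to 4229 to 6739 in cerebellum and 177 to 1022 in liver, and all 3 oligodendrocyte markers were higher in cerebellum (1555 to 5138 in cerebellum and 233 to 305 in liver). The part of these cell types in the differences of the members was not tested.

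Other genes of the same pathways were read from lists of 114 genes, of which 84 were measured, with NRGN in both the calmodulin and the protein kinase C list. The percents of each list stand beside those of all features, 26.7% higher in cerebellum and 23.9% in liver. Upstream of protein kinase C and the calcium signal, 19 genes of phospholipase C, diacylglycerol kinase and the IP3 receptor were measured. Of these, 10 (52.6%) were higher in cerebellum and 3 (15.8%) in liver, with a median of 1.12. PLCB4, a phospholipase C of glutamate receptor signalling in Purkinje cells, averaged 883 ± 231 in cerebellum and 16.7 ± 5.34 in liver (4.72 log2 units, adjusted p = 1.28e-06 by limma). PLCG2, a phospholipase C of immune cells, averaged 14.0 ± 2.79 in cerebellum and 85.5 ± 22.8 in liver (-1.71 log2 units, adjusted p = 1.86e-04 by limma). Of 10 genes of calmodulin and calcineurin, 6 (60%) were higher in cerebellum and 2 (20%) in liver, with a median of 1.49. PCP4, a calmodulin-binding peptide of Purkinje cells, averaged 2176 ± 709 in cerebellum and 67.7 ± 59.8 in liver, and CALML4, a calmodulin-like gene, averaged 77.3 ± 7.49 in cerebellum and 161 ± 27.4 in liver (4.88 and -0.91 log2 units). Once arrays were aligned on general genes, 0 of this list were higher in liver, where 2302 of 15143 features were. CALML4 then had an adjusted p of 0.0712 (limma). Of 10 protein kinase C substrates and related kinases, 3 (30%) were higher in cerebellum and 4 (40%) in liver. Among them were the growth cone protein GAP43 at 3.67 on the log2 scale and the protein kinase D gene PRKD3 at -1.33.

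The other lists cover genes around the MAP kinases, beside the same 26.7% and 23.9% of all features. Of 18 genes of RAS, RAF and their regulators, 6 (33.3%) were higher in cerebellum and 3 (16.7%) in liver, with a median of 0.10. RASGRP1, a RAS activator that responds to calcium and diacylglycerol, had 566, 343 and 610 in cerebellum, against 19.8, 23.1 and 40.7 in liver (3.54 log2 units, adjusted p = 1.17e-05 by limma). SHC1, an adaptor of receptor tyrosine kinases, had 78.5, 68.3 and 69.5 in cerebellum, against 443, 394 and 448 in liver (-2.32 log2 units, adjusted p = 6.79e-06 by limma). Among 9 kinases that MAP kinases activate, 4 (44.4%) were higher in cerebellum and 3 (33.3%) in liver. RPS6KA5, or MSK1, was at 3.58 and MAPKAPK3, a p38 target, at -1.39. Of 6 other phosphatases of MAP kinases, 4 (66.7%) were higher in cerebellum and 0 in liver. The receptor-type phosphatase PTPRR, with the largest difference, averaged 557 ± 67.1 in cerebellum and 8.48 ± 3.92 in liver (4.51 log2 units, adjusted p = 5.17e-07 by limma).

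Immediate early genes, which MAP kinases and stress induce within minutes, were read beside DUSP1. Of 13 measured, 1 was higher in cerebellum and 5 in liver, or 7.69% and 38.5%, against 26.7% and 23.9% of all features. Their median was -0.43. With arrays aligned on general genes 2 of the 13 were called in each direction. Under that alignment 5749 of 15143 features were higher in cerebellum and 2302 in liver. MYC averaged 48.1 ± 17.1 in cerebellum and 558 ± 319 in liver (-2.98 log2 units, adjusted p = 7.14e-04 by limma), with liver values of 211, 625 and 837. FOSL1 averaged 285 ± 13.4 in cerebellum and 184 ± 33.6 in liver (0.60 log2 units, adjusted p = 0.0239 by limma). FOSL1 did not pass when any 1 cerebellum array, or liver replicate 2 or 3, was left out (limma, adjusted p of 0.0506 to 0.0863). Of 7 listed heat shock and acute stress genes, 3 were measured. HMOX1 and GADD45B were higher in liver, and 0 were higher in cerebellum. The heat shock gene HSPH1 was not called, and its tissues overlapped (-0.28 log2 units, adjusted p = 0.635 by limma). The summed intensity of the 3 genes was 267 to 435 across cerebellum arrays and 1341 to 1675 across livers. The part of stress before sampling in the DUSP1 difference was not tested.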

How the data were processed

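RNA of 3 cerebellum and 3 liver samples was hybridised to exon arrays, after TRIzol extraction and reduction of ribosomal RNA per the labels' protocols. The deposited values are linear intensities for 15143 features, and the submitters' processing notes name GCOS. For background correction, the summary of probes and the genome build, nothing is stated in the labels. The deposited intensities hold the same sorted values on all 6 arrays, so differences in total signal cannot be seen, and 93 values per array lie below 0.

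Values below 0 were set to 0, and levels were taken as log2(intensity + 16.8), a pseudocount set at the 10th percentile of the table. This scale understates the differences of dim genes. Tissues were compared with limma 3.58.1 in R 4.3.3 (lmFit and eBayes, two-sided, no block, no filter), with Benjamini-Hochberg adjustment over all features and a threshold of 0.05. The procedure was tested on simulated data. The number of arrays limits the precision.

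The members and gene lists were chosen with earlier results of these data known. Genes named with values were the 2 largest called differences without overlap in each direction of each role group, all members of groups of up to 4, and the largest call in each direction of each pathway list. A gene that the text marks as outside the rule was picked with its values in view. Alternatives changed the pseudocount, the floor, the filter, the scaling, the variance model, the block, the call rule and the arrays used. No sequences or coordinates were used.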

Additional observations from a re-analysis of the deposited data

How the results depend on the processing

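Of 18 alternatives, 0 reversed the sign of a called member. Several could not do so, because the block, the 2-fold rules, the variance model and the dim filter leave the log2 estimates unchanged. Repeating quantile normalization or centring arrays on the median returned the main result, because all arrays hold the same sorted values. Of the 44 called members, 30 were tested and kept their call under every alternative other than the 2-fold rules. With dim features left out, 4 called members were not tested (MAPK13, MAP3K8, DUSP9 and DUSP29). Tested against a 2-fold difference (limma treat), 1295 features were higher in cerebellum and 1350 in liver, with 15 and 5 members. With the adjusted p and at least 2-fold, 2600 and 2397 features passed. With arrays aligned on the general genes, 2302 features and 9 members were higher in liver, in place of 3617 and 14, and 5749 features and 37 members were higher in cerebellum. Leaving out each array in turn gave 3285 to 3966 features higher in cerebellum and 2828 to 3704 in liver, with 25 to 30 and 10 to 13 members. With values under the pseudocount set to it, PRKCD, PRKCI, CAMK2N1, MAPK6 and DUSP29 lost their calls and PRKCQ and DUSP4 passed. The cause of these changes was not tested. No member shared its symbol with a second usable feature, so taking the dimmer feature could not be run. The left-out pair of arrays was chosen after seeing the data.

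With the replicate block, 3994 features and 30 members were higher in cerebellum and 3538 features and 13 members in liver, and MAPK13 lost its call (limma, adjusted p = 0.0665). Deviations of same-numbered cerebellum and liver arrays from their tissue means correlated across features at 0.112, 0.164 and -0.144, and cerebellum replicate 3 correlated best with liver replicate 1, at 0.239. Same-numbered samples share sex and age, but the labels name no shared animal, so the samples were not paired in the reported values. The deviations of the 3 arrays of a tissue balance each other, so these correlations cannot tell whether same-numbered samples came from 1 animal. The 12 members under the 25th percentile of feature means, 53.4, lie nearest to the background.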
